A study of Mus musculus with 2 samples.

Results

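The genes described here mark the base of the colonic crypt, where stem cells divide, or are switched on by Wnt signalling in many tissues. They were taken as a named set of 10: the stem cell markers Lgr5, Ascl2 and Smoc2, and the general Wnt targets Axin2, Cd44, Nkd1, Sox9, Ephb2, Ephb3 and Rnf43. A gene was measured where a probe set is annotated with that gene alone. This held for 9 of the 10, among 22180 genes so measured on the arrays. Ephb2 was not analysed here. The psyllium group was male ICR mice, an outbred stock, aged 7 weeks and given feed with 10% psyllium, a gel-forming seed-husk fibre, for 5 days. The control group was male ICR mice of the same age given feed without it. All mice are labelled healthy, with no allele given. Whole colon RNA was hybridised to 1 array per diet, and the labels do not give the number of mice behind an array or the segment and layers of colon taken.

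In the crypt, Wnt ligands from the surrounding mesenchyme keep beta-catenin from being degraded. Beta-catenin then enters the nucleus and works with TCF and LEF factors to switch on target genes. R-spondins, acting through Lgr receptors, strengthen the signal, and several targets feed back to weaken it. The signal is strongest at the crypt base and fades toward the surface, where differentiated colonocytes lie.

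Values are normalised intensities on a linear scale, and a difference is log2 on the psyllium array minus log2 on the control array. With 1 array per diet there is no replicate error, so no p-value is given and each difference is between these arrays only. For 332 genes with more than 1 sufficiently bright probe set, the differences of a gene's brightest probe sets lay a median of 0.17 apart. Across the 11090 genes whose brighter array reached an intensity of 69.5, the median over all genes, the median difference was -0.04 and its SD across genes 0.33. The number of arrays limits the precision. All 9 measured members reached that intensity on both arrays, so none depends on the array where it was brighter.

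The stem cell markers and the Wnt targets differed in opposite directions by their medians, but both groups held members of either sign. The markers had a median difference of -0.24, with 1 of 3 higher on the psyllium array. This median is the value of Lgr5's brighter probe set, and with the mean of each gene's probe sets it was -0.12. The Wnt targets had a median of 0.25, with 4 of 6 measured members higher. Markers minus targets gave a gap of medians of -0.49 on the log2 scale, and of -0.37 with the mean of probe sets. The 12 further stem cell genes and 13 measured further Wnt targets described below had medians of 0.02 and -0.02, without such a gap. Of all 9 members, Cd44 and Nkd1 reached 1.5-fold in favour of psyllium (2 genes), a size that 4.03% of the 11090 genes past the filter reached in that direction. None reached it in the other direction, where 2.42% of those genes did. These shares are also the background for the 1.5-fold counts of other gene lists below, some of which include genes below the filter. For counts by sign the background is 4731 genes higher and 6275 lower on the psyllium array, of the 11090 past the filter. The median over the 9 members was 0.23.

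**Figure D1:**
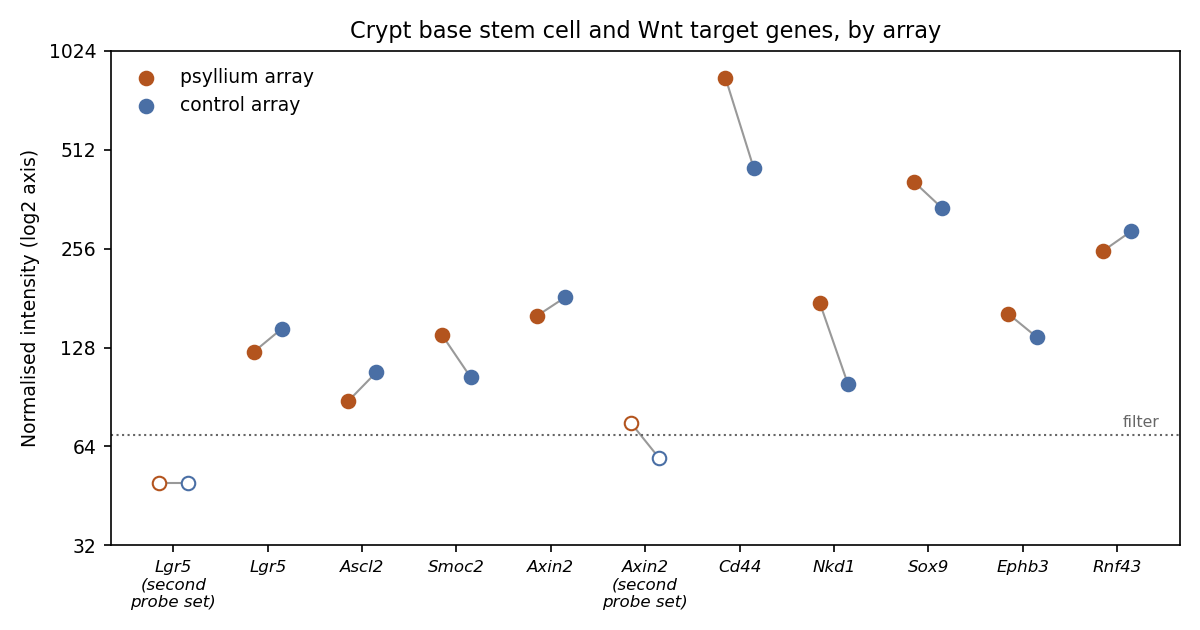
Normalised intensity on a log2 axis for each member, with the psyllium array on the left and the control array on the right of each pair. Filled points are the brightest probe set of a gene, open points the other probe set of Lgr5 and of Axin2, and the dotted line is the filter at 69.5. Cd44 and Nkd1 have the steepest lines, and the heights of different genes cannot be compared because each probe set has its own response.

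Among the stem cell markers, Lgr5 and Ascl2 were lower on the psyllium array and Smoc2 was higher, all by less than 1.5-fold. Lgr5, the R-spondin receptor that defines cycling crypt base stem cells, had an intensity of 124 on the psyllium array and 146 on the control array. Its difference was -0.24, or 1.18-fold lower. A dimmer probe set annotated with Lgr5 read 49.4 on both arrays, below the filter. Identical pairs of this kind occurred for 1013 of the 41345 probe sets on the arrays, or 2.45%. Ascl2, a transcription factor that maintains the stem cell state downstream of Wnt, read 87.8 on the psyllium array and 108 on the control array, a difference of -0.29. It had the lowest difference of the measured members, and 12.8% of genes past the filter were at least as low. Smoc2, a secreted calcium-binding matrix protein of the crypt base, read 139 on the psyllium array and 104 on the control array. Its difference was 0.42, and 7.13% of genes past the filter were at least as high. The trio thus split, with 1 member higher and 2 lower.

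The feedback regulators of Wnt signalling also differed from one another. Nkd1, which binds Dishevelled and dampens the signal, read 175 on the psyllium array and 98.8 on the control array. It was 1.77-fold higher, a difference of 0.82, and 1.84% of genes past the filter were at least as high. Axin2, a scaffold of the complex that degrades beta-catenin and a widely used reporter of Wnt activity, read 160 on the psyllium array and 182 on the control array. Its difference was -0.19, while its dimmer probe set read 75.4 and 58.9 on those arrays, a difference of 0.36. The dimmer set passed the filter on the psyllium array alone, and the mean over both probe sets was 0.08, so Axin2 had no settled direction. Rnf43, a ubiquitin ligase that removes Wnt receptors from the cell surface, read 252 on the psyllium array and 289 on the control array, a difference of -0.20. Of these feedback inhibitors, Nkd1 alone was past 1.5-fold.

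Cd44, a hyaluronan receptor of crypt base cells that is also carried by leukocytes and stromal cells, had the largest difference of the measured members. It read 848 on the psyllium array and 450 on the control array. This was 1.88-fold higher, a difference of 0.91, and 1.46% of genes past the filter were at least as high. Sox9, a transcription factor of crypt progenitors and also of enteric glia, read 408 on the psyllium array and 339 on the control array, a difference of 0.27. Ephb3, a receptor tyrosine kinase that helps to hold cells at their position along the crypt, read 162 on the psyllium array and 138 on the control array, a difference of 0.23. Sox9 and Ephb3 were thus higher by about as much as Lgr5 was lower.

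**Figure D2:**
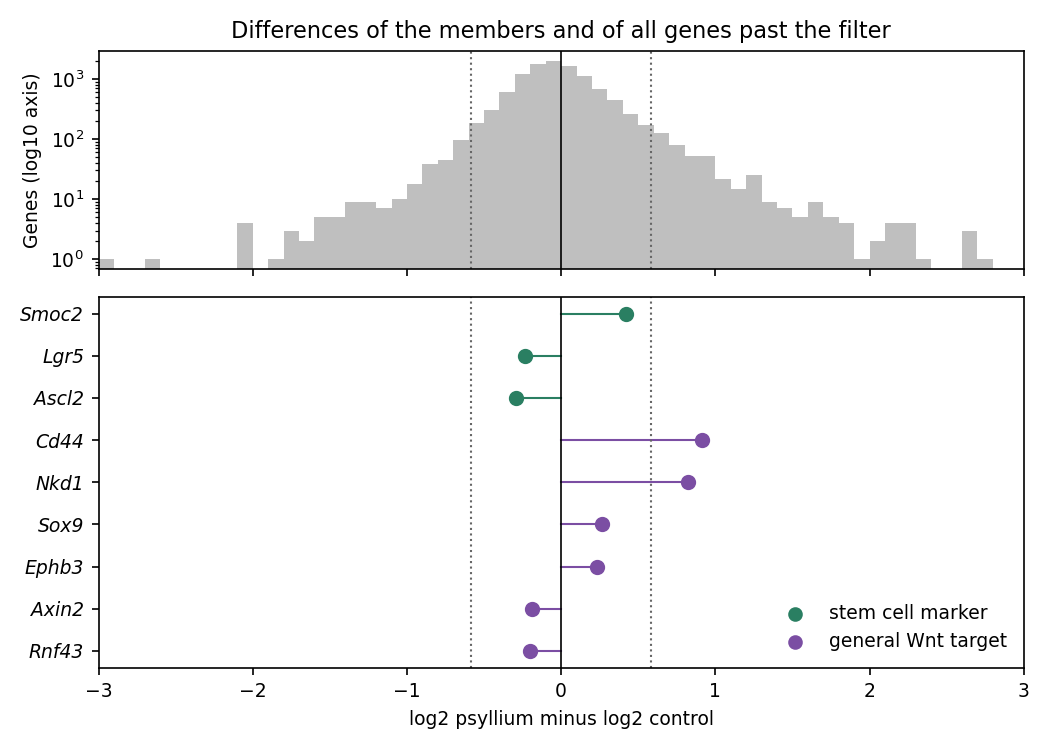
Upper panel, number of genes past the intensity filter on a log10 axis by their log2 difference, psyllium minus control. Lower panel, the 9 measured members on the same horizontal axis, with stem cell markers above Wnt targets and dotted lines at 1.5-fold. Cd44 at 0.91 and Nkd1 at 0.82 lie beyond the line, and the other 7 members lie between -0.29 and 0.42.

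The promoters of Nkd1, Axin2 and Cd44 are shown because Nkd1 and Axin2 are both feedback targets of Wnt, Nkd1 past 1.5-fold and Axin2 with probe sets of either sign, and Cd44 had the largest difference. Each runs from 250 bases before the annotated start to 50 after it, 5′ to 3′ on the gene's strand, from RefSeq on GRCm38.p6. The 1 capital marks the first transcribed base. The windows are chr8:88527383-88527682 on the plus strand, chr11:108920099-108920398 on the plus strand and chr2:102901616-102901915 on the minus strand.
Nkd1: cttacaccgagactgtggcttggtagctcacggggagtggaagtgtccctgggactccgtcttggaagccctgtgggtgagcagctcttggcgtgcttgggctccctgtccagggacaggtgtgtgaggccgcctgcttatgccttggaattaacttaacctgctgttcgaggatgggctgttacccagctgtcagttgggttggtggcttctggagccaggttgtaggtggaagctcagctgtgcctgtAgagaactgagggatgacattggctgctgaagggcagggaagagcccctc
Axin2: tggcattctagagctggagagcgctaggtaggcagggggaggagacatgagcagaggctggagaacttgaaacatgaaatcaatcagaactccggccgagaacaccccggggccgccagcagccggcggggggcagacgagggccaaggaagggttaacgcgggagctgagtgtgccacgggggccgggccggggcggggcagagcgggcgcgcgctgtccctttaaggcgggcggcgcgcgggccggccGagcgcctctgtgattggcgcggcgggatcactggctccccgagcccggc
Cd44: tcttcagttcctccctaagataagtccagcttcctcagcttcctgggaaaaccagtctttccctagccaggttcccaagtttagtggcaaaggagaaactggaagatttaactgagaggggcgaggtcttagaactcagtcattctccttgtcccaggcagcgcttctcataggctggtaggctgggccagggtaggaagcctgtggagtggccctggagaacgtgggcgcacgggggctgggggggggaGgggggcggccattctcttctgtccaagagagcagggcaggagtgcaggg
The core letters bound by TCF and LEF factors were searched on both strands as CTTTG followed by a pair of letters that are each A or T. None of the 3 windows held a match, and neither did any of the 8 windows that the table gives for 7 of the members. Of all 32851 promoter windows of that length, 16.9% held at least 1. This says only that these letters are not in these windows. The member windows had a median G plus C content of 62.5%, with a range from 44.3% for a Rnf43 window to 70.0% for Axin2, against a median of 52.7% over all windows.

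Other genes of the crypt base differed little. Of 12 further stem cell genes, all measured, none was 1.5-fold higher or lower, and their median was 0.02 beside -0.04 for all genes past the filter. The highest past the filter were Rgmb, a co-receptor of bone morphogenetic proteins, at 0.55 (577 on the psyllium array and 396 on the control array) and the chloride co-transporter Slc12a2 at 0.34. The lowest were the transcription factor Sox4 at -0.19 and Cdca7, a regulator of DNA methylation, at -0.15. Olfm4, which marks stem cells of the small intestine in mice, read 35.4 on the psyllium array and 42.5 on the control array. Olfm4 (-0.26), Bmi1 (0.27) and Msi1 (-0.06) were the 3 genes of this list below the filter on both. Genes of dividing crypt cells had a median of -0.05 and none of 14 measured was past 1.5-fold in either direction. The replication helicase subunits Mcm6 and Mcm5 were the highest at 0.28 and 0.16, and Rrm2, which makes deoxyribonucleotides, and the topoisomerase Top2a the lowest past the filter at -0.22 and -0.14.

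A close relative of Nkd1 had the largest difference among the other Wnt targets. Nkd2 read 152 on the psyllium array and 71.9 on the control array, 2.12-fold higher, and was the 1 of 13 measured targets past 1.5-fold. The list had a median of -0.02. Tiam1, an activator of Rac, followed at 0.28, and Wif1, a secreted Wnt inhibitor, and Myc, a driver of growth, were the lowest past the filter at -0.32 and -0.15. Sp5, Notum and Lef1, which respond directly to Wnt signalling, differed by -0.42, -0.29 and -0.23, and Apcdd1, a membrane inhibitor of Wnt, by 0.05. These 4 lay below the filter on both arrays. The pair Nkd1 and Nkd2 thus differed in the same direction, while the list as a whole had a median near that of all genes.

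Among genes that carry the Wnt signal, most differed by less than 1.5-fold. Of 14 measured genes of the beta-catenin complexes, Tcf7l2, the main TCF factor of the intestinal epithelium, was the 1 past that fold. It read 220 on the psyllium array and 345 on the control array, 1.57-fold lower. The co-repressor Tle3 was the highest at 0.57 (602 on the psyllium array and 405 on the control array), followed by the kinase Gsk3b at 0.22, and the nuclear cofactor Pygo2 was the lowest after Tcf7l2 at -0.28, with its psyllium value of 63.5 below the filter. Ctnnb1, which encodes beta-catenin, differed by -0.08. Of 8 R-spondin and receptor genes, Rspo3, a mesenchymal R-spondin, was the 1 past 1.5-fold, with 113 on the psyllium array and 74.2 on the control array (1.52-fold higher). Rspo1 followed at 0.42, and the receptors Lgr4 and Lrp6 were the lowest at -0.09 and -0.00037. Rspo1 and Rspo3 are made by stromal cells.

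Of the ephrin-B ligands, which are expressed toward the crypt surface in opposition to the EphB receptors, the 2 past the filter were lower on the psyllium array. Efnb2 read 476 on the psyllium array and 689 on the control array, a difference of -0.54. Efnb1 read 515 on the psyllium array and 695 on the control array, a difference of -0.43. Neither reached 1.5-fold. The remaining ligand, Efnb3, was below the filter on both arrays, at 58.2 on the psyllium array and 51.0 on the control array (0.19). The receptor Ephb4, expressed in venous endothelium, differed by 0.07. Efnb1, Efnb2 and Ephb4 were the 3 of 6 genes of the list past the filter, and the list had a median of -0.17. Ephb3 (0.23) and its 2 bright ligands therefore differed in opposite directions.

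Genes of other cell types also differed between the arrays, and their part in the member differences was not tested. All 12 smooth muscle genes were higher on the psyllium array, 11 of them by at least 1.5-fold, with a median of 1.10 and summed intensities of 30887 on the psyllium array and 13105 on the control array. Actg2 (2.14) and Synm (1.88) were the highest, and Mylk (0.58) and Lmod1 (0.66) the lowest. All 12 fibroblast and matrix genes were higher, 10 of them by at least 1.5-fold, with a median of 1.63 and sums of 13791 on the psyllium array and 5027 on the control array. Fn1, which encodes fibronectin, and the microfibril gene Mfap5 were the highest at 2.61 and 2.28, and Fbln1 (0.23) and Pdgfra (0.32) the lowest. Mfap5 lay below the filter on the control array, so the size and rank of its difference are uncertain. Cd44 at 0.91 and Nkd1 at 0.82 were smaller than both medians. All 20 genes listed for epithelium at every crypt position were lower, with a median of -0.27. Their sums were 26128 on the psyllium array and 30345 on the control array. The tight junction gene Cldn4 (-0.57) and the intestinal transcription factor Cdx2 (-0.49) were the lowest, the keratins Krt18 (-0.01) and Krt8 (-0.03) were the highest, and none of the list reached 1.5-fold. In RNA of whole colon, fewer cells of a type and less RNA per cell cannot be told apart.

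Set against the epithelial median, most members were positive, as were most genes past the filter. Subtracting that median of -0.27 from each difference left Lgr5 at 0.04, Ascl2 at -0.02, Axin2 at 0.09 and Rnf43 at 0.07. Smoc2 then stood at 0.70, Sox9 at 0.54, Ephb3 at 0.51, Nkd1 at 1.10 and Cd44 at 1.19, and 8 of the 9 were positive. Under the same centring the median of all genes past the filter stood at 0.24. Of those genes, 81.7% were at least as high as Lgr5 and 87.2% at least as high as Ascl2, so the count of 8 does not set the members apart. The direction of Lgr5, Axin2 and Rnf43 turned under this centring. The epithelial genes ran from -0.57 to -0.01, and Epcam (-0.07), Krt8 (-0.03) and Krt18 (-0.01) lay above these members before centring. The turn therefore depends on which epithelial genes set the centre. The distances of the members from each other stayed as before, since a constant was subtracted.

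Most genes of differentiated surface cells had lower differences than any member. Of 12 surface colonocyte genes, 6 were lower by 1.5-fold or more and 0 higher by that much. The shares of all genes past the filter were 2.42% and 4.03%. The surface list had a median of -0.57, with summed intensities of 37506 on the psyllium array and 49126 on the control array. The water channel Aqp8 (-2.60) and the sugar phosphate transporter Slc37a2 (-2.09) were the lowest, followed by Clca4a, Car4, Cyp2c55 and Slc9a3. Aqp8 read 50.5 on the psyllium array, below the filter, so the size and rank of its difference are uncertain. Guca2a, a precursor of a hormone that drives fluid secretion, was the highest at 0.07, followed by Ceacam1 at -0.16. Genes listed for the goblet-like secretory cells of the crypt base were mixed. Reg4, their defining marker, differed by 0.04. Of the 9 genes 7 were higher, with a median of 0.24, and several, Agr2 and Muc2 among them, are expressed by all goblet cells. Agr2, a chaperone of mucin folding, was the 1 past 1.5-fold, with 6202 on the psyllium array and 4122 on the control array. The mucin Muc2 followed at 0.39, and the Notch ligands Dll1 and Dll4 were the lowest at -0.37 and -0.20. Dll1 read 57.6 on the psyllium array, below the filter.

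**Figure D3:**
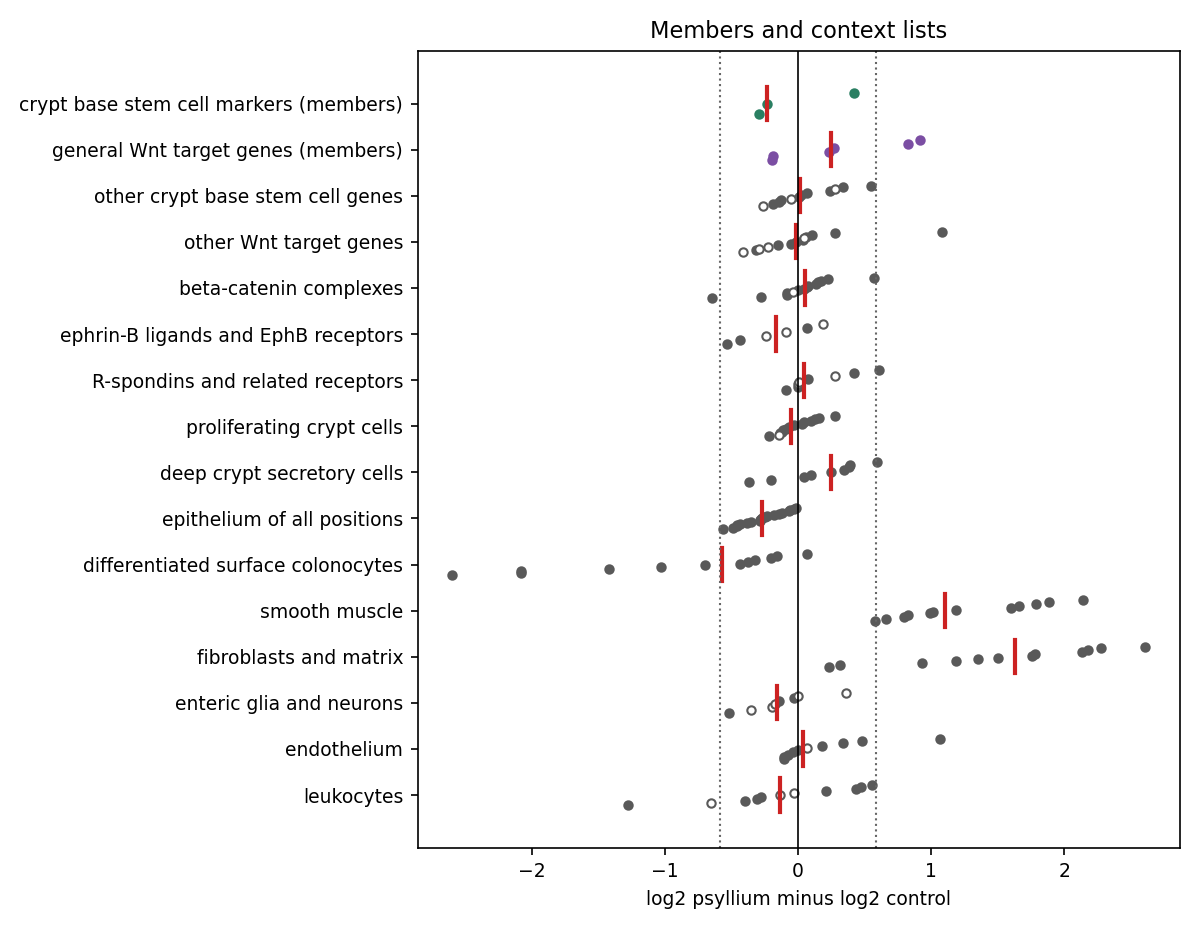
Log2 difference, psyllium minus control, for each measured gene of the member groups and of 14 context lists, with open points for genes below the intensity filter and red bars for list medians. Dotted lines mark 1.5-fold. Smooth muscle and matrix medians lie at 1.10 and 1.63, the surface colonocyte median at -0.57, and the stem cell marker and Wnt target medians at -0.24 and 0.25.

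Among other cells that carry member transcripts, differences were smaller or mixed. Leukocyte genes, set beside Cd44, had a median of -0.14, and 2 of 11 measured genes were lower by 1.5-fold or more while 0 were higher by that much. Past the filter, 1 of 8 was lower by that much, beside 2.42% of all genes past the filter. The sums of the 11 leukocyte genes were 1351 on the psyllium array and 1307 on the control array. The macrophage genes Lyz2 (0.56) and Adgre1 (0.47) were the highest, and Cd3e (-1.28), of T cells, and Itgax (-0.40), of dendritic cells, the lowest past the filter. Itgax read 61.4 on the psyllium array, below the filter. Cd8a, at -0.65, lay below it on both arrays. Glia and neuron genes, set beside Sox9, had a median of -0.16 with none of 8 measured past 1.5-fold, and sums of 571 on the psyllium array and 675 on the control array. Past the filter, the synaptic gene Snap25 (-0.52) and the receptor Ret (-0.15) were the lowest and the neuronal hydrolase Uchl1 (-0.03) the highest. The glial genes Sox10, S100b and Gfap lay below the filter on both arrays, at -0.36, 0.00 and 0.36. Endothelial genes had a median of 0.03, with sums of 1999 on the psyllium array and 1588 on the control array, and Lyve1, of lymphatic vessels, was the 1 of 10 past 1.5-fold, at 1.06. Eng followed at 0.48, and the receptors Tek (-0.11) and Kdr (-0.10) were the lowest.

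**Figure D4:**
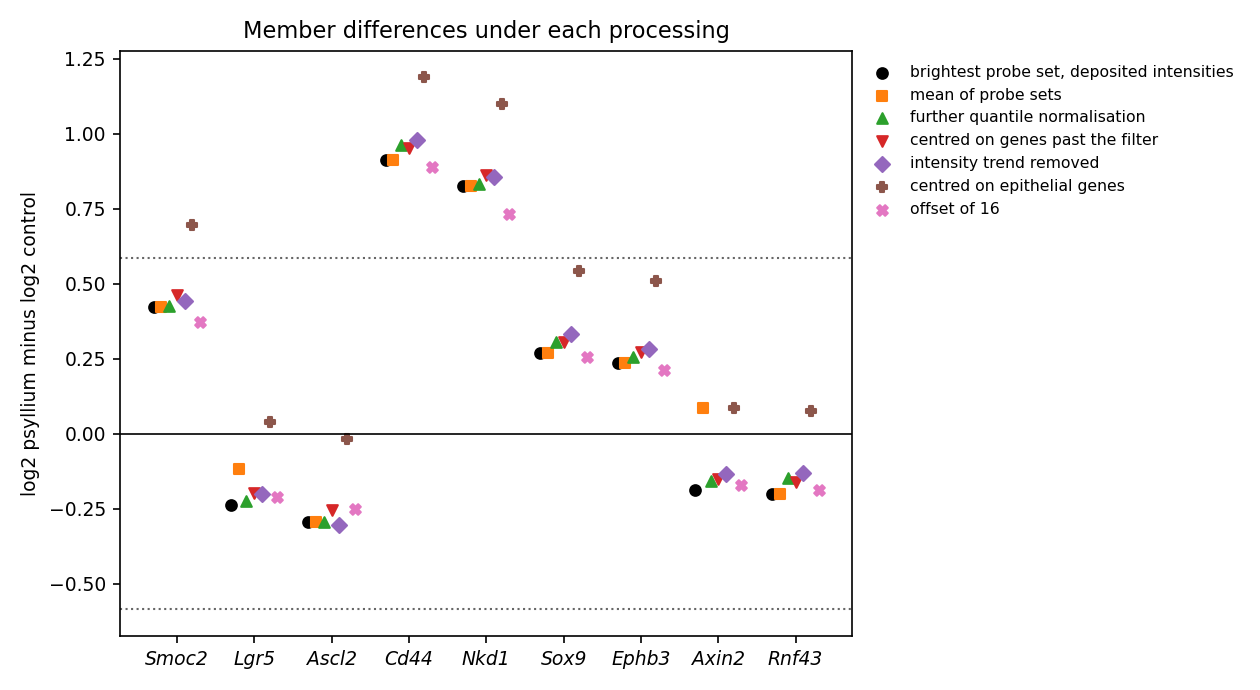
Log2 difference, psyllium minus control, of each measured member under the main processing (black) and 6 alternatives, with dotted lines at 1.5-fold. Cd44 and Nkd1 stay beyond the line under every processing plotted, and Lgr5, Axin2 and Rnf43 lie above 0 when centred on epithelial genes, as does Axin2 with the mean of its probe sets.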

How the data were processed

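Total RNA of mouse colon was labelled with biotin using the GeneChip WT PLUS kit, per the labels' protocols. The deposited table holds 1 normalised intensity per probe set and array on a linear scale. The submitters' processing notes name RMA, which usually equalises arrays, and Affymetrix Expression Console, with no version of either. How the linear values follow from RMA, and the genome build, are not given in the sources used here. After such equalising, a difference is relative to most other transcripts.

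Intensities were converted to log2 with no pseudocount (Python 3.11.15, pandas 2.3.3). Gene names came from GEO's platform annotation and were updated by gene number through a RefSeq table of GRCm38.p6, which held 23328 of 23521 probe sets naming 1 gene. The brightest probe set by mean log2 level stood for its gene. Counts used 1.5-fold. Members and lists were chosen with earlier results of these data known. Of 167 context list entries 161 were measured. Context genes were named as the 2 highest and 2 lowest past the filter and those past 1.5-fold, those left in smooth muscle and matrix being given as counts. Ctnnb1 and genes named below the filter were chosen after their values were seen. The procedure was tested on simulated data, made by shuffling the differences of these arrays and adding known folds. That checks the arithmetic alone and holds no array noise. With 1 array per diet no test, outlier check or leave-out was possible.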

Additional observations from a re-analysis of the deposited data

Results flagged for a closer look

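The dimmer probe set of Axin2 was not used for the gene's value, and it was brighter on the psyllium array (75.4) than on the control array (58.9), a difference of 0.36. The brighter probe set of the gene differed by -0.19, so the sign for Axin2 depends on the probe set read.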

How the results depend on the processing

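With 1 array per diet, a value was taken as moved when it changed by at least 0.17, the median gap between probe sets of a gene. No paired analysis was possible because each diet has 1 array. Alternatives for the context lists were chosen after seeing the data. Cd44 ranged from 0.89 to 1.19 and Nkd1 from 0.73 to 1.10 over 6 alternatives, positive under all. Ascl2 ranged from -0.30 to -0.02, Smoc2 from 0.37 to 0.70, Sox9 from 0.26 to 0.54 and Ephb3 from 0.21 to 0.51, each with its sign kept. Centring on epithelial genes moved the marker median to 0.037 and the Wnt target median to 0.53. It moved the median of all genes past the filter to 0.24. Counting Axin2 and Rnf43 with the stem cell markers moved the target median to 0.55 and the gap, markers minus targets, to -0.75. Counting Sox9 with them, Ephb2 being unmeasured, moved the marker median to 0.015 and that gap to -0.22. At 2-fold, 0 members were higher, and at a threshold looser than 1.5-fold, which Smoc2 (0.42) also passed, 3 were. The share of all genes past the filter was computed at 1.5-fold alone. Neither count is therefore set against a background, and no departure from it can be read from them. Members past the filter gave an ephrin-B and EphB list median of -0.43. With the mean of probe sets the marker median was -0.12 and the gap -0.37. The centrings and the restriction to members past the filter cannot change the gap. Counting Axin2 and Rnf43 as markers could not reverse it, because they are the measured Wnt targets with negative differences. The gap stayed negative under the remaining alternatives. The count of members lower was 0 under each alternative run.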
